A study of Danio rerio with 23 samples.

Results

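The solute carriers expressed in the zebrafish gut were followed through starvation and refeeding. The 57 genes described were chosen by their symbol and by their measured level. A gene was taken when its symbol in the gene name table began with slc, in either case, and when its CPM (the reads of a gene scaled to a common library total) averaged 20 or more over all 23 libraries. Of 34326 genes in the count tables, 441 carried such a symbol, 375 of these had at least 1 read and 62 reached the minimum. The 5 of them that carry copper, zinc, sugar phosphate or sodium-coupled glucose (SLC31A1, SLC30A4, slc39a6, SLC37A4 and SLC5A1) were left out by name. Both genes named SLC15A1 were kept, because the name table holds no slc15a1b for the rule to remove. Just outside the minimum lay SLC43A2 (ENSDARG00000036848) at 19.92 CPM and SLC16A9 at 19.03 CPM, and just inside lay SLC12A4 at 20.07 and SLC7A9 at 20.4 CPM. The level that chose the members is described below and supports nothing by itself.

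RNA was sequenced from whole intestines of single zebrafish, all offspring of 1 breeding pair and divided among 4 tanks. Fish of 2 tanks were fed throughout. Fish of the other 2 tanks received no food and were sampled after 3 days (3dpS) or 21 days (21dpS), or after 21 days without food and 3 days of refeeding (3dpR). Each time point has its own fed controls, with 3 libraries for the 3dpS fed fish and 4 for each of the other 5 groups. Food for the fed and refed fish was live Artemia alternating with the dry feed Gemma 300. The labels give an age of 81 dpf (days post fertilization) for every library, although the fish were sampled on different days. Since fed and starved fish never shared a tank, diet and tank cannot be told apart, and the p-values measure the spread between single fish of 2 tanks an arm.

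Solute carriers are membrane proteins that move sugars, amino acids, ions, vitamins and other small molecules across membranes, mostly by coupling to a gradient of sodium or protons or by exchange. In enterocytes, the absorptive cells of the gut, some sit in the brush border facing the lumen and others at the basolateral side, where the sodium-potassium ATPase keeps the sodium gradient that drives uptake. Others work inside the cell, in the inner membrane of mitochondria, in lysosomes, or in the endoplasmic reticulum and Golgi.

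The libraries held 500205 to 1236436 counted reads, and the members together took 0.81 to 1.806% of them. A count of 3 reads corresponded to 2.43 to 6.0 CPM, and this counting error comes on top of the variation between fish. Markers of enterocytes were present in every group (FABP2, the intestinal fatty acid binding protein, at 152 to 377 CPM). Exocrine pancreas markers were present too and were highest in the library 3dpS Fed1Gut1, at a summed 6997 CPM. Reads on the mitochondrial genes stood out: MT-ND6, the protein gene on the opposite strand from the others, averaged 26730 CPM and MT-CO1, the next highest, 6194. The strand setting of the counting is not stated, so the count of a gene may hold reads from the other strand, in part or mainly. Which strand was counted was not tested, and every level below carries this limit. Of 31 members found in RefSeq by symbol, 12 overlap another gene, and 5 of these overlap a gene counted here (SLC5A8, slc22a7b.3, slc27a2a, SLC35A5 and slco2b1). Among the members called below, SLC25A15, SLC1A7 and SLC20A1 were not found by symbol, so their overlaps were not checked. SLC5A10 and slc19a3a overlap genes that have no count here, and SLC35B1 overlaps none. In RNA of a whole organ, fewer cells of one type and less RNA per cell cannot be told apart.

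By substrate, 16 members carry amino acids or peptides and 10 carry inorganic ions. Another 8 carry lipids, bile acids and organic ions, and 7 carry vitamins, choline, nucleosides or haem. The remaining classes were smaller, with 5 mitochondrial carriers, 4 carboxylate carriers, 4 of nucleotide sugars and related substrates, 2 sugar carriers and 1 carrier of an osmolyte. These classes follow the symbol, not a measured substrate, and were assigned with earlier results known. A member can therefore carry another substrate than its class names. SLC35B1, an ATP/ADP exchanger in mammals, is counted with the nucleotide sugars and related substrates. All 57 members had at least 1 read in every library and 55 had at least 3. In 41 members the unscaled group mean reached 20 CPM in all 6 groups, and in 16 it did not. Levels below are CPM scaled by edgeR's TMM factors; gene lengths were not available, so the level of one gene is not compared with that of another.

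**Figure D1:**
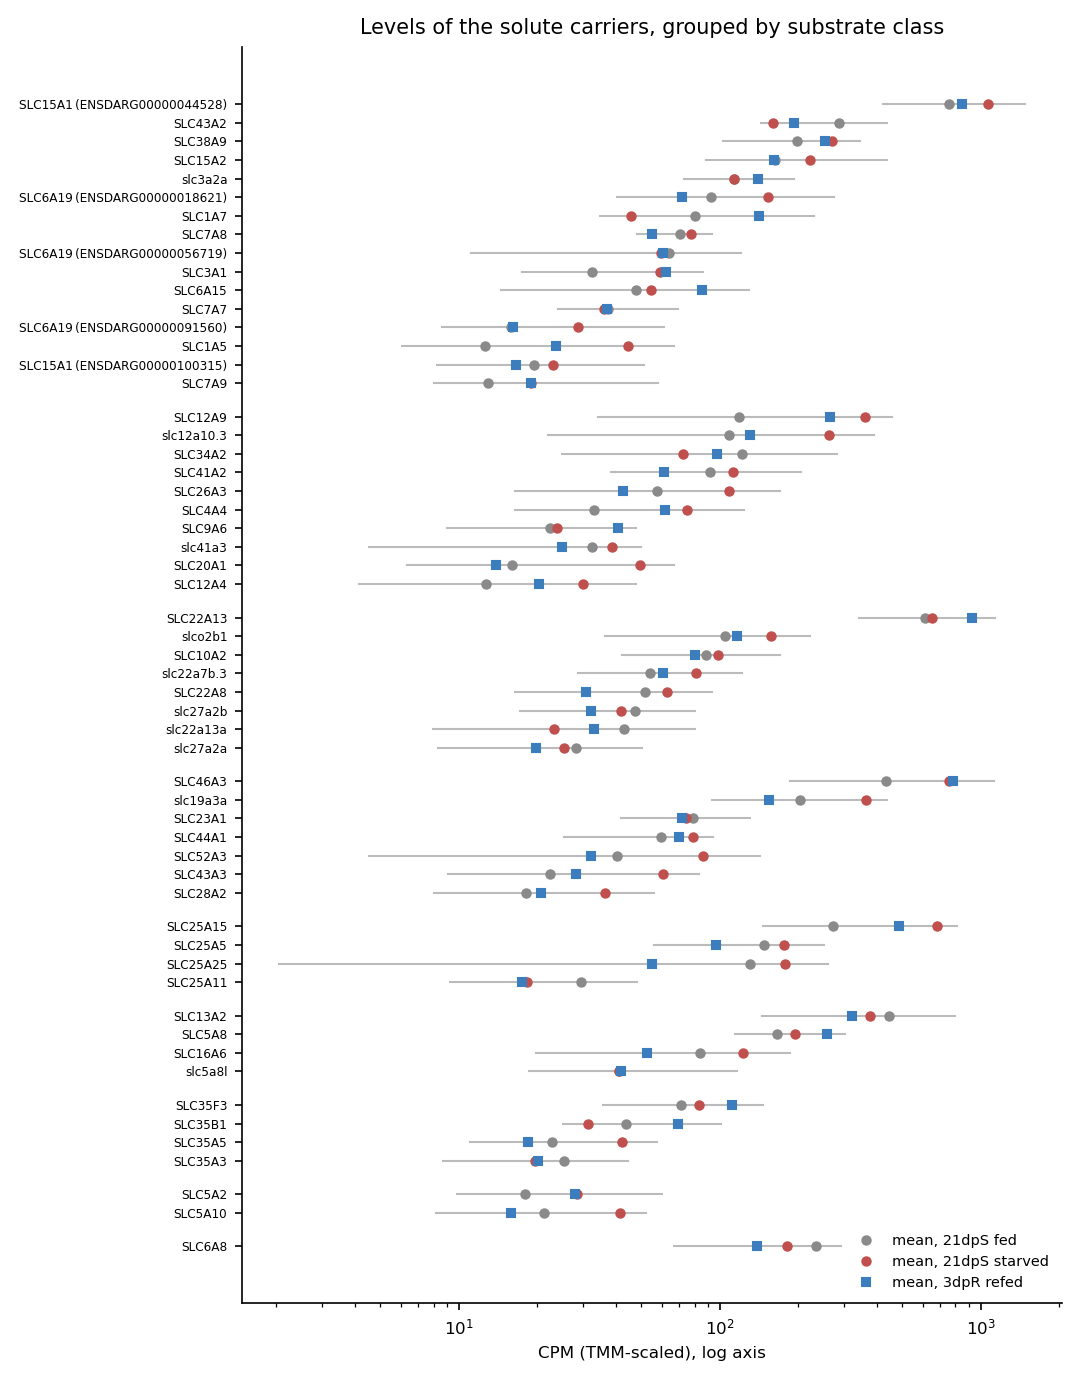
Levels of 56 of the 57 solute carriers in TMM-scaled CPM on a log axis, grouped by substrate class from amino acids and peptides at the top to the creatine carrier SLC6A8 at the bottom. Grey lines run from the lowest to the highest of the 23 libraries, and points give the mean of the 21dpS fed (grey), 21dpS starved (red) and 3dpR refed (blue squares) libraries; the longest line belongs to SLC25A25, which fell to 2.05 CPM in 1 refed library.

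The members varied moderately between groups. The highest group mean was 1.25 to 4.46 times the lowest, with a median of 2.04. It was the 21dpS starved group that held the highest mean for 23 of 57 members and the 3dpS starved group for 13, while the 21dpS fed group held the lowest mean for 16. Among fed fish of one time point the coefficient of variation of a member had a median of 32.8%, from 12.8 to 85.0%. The steadiest member between groups was SLC23A1, an ascorbate carrier, with a ratio of 1.25. At the other end SLC20A1, a sodium-coupled phosphate carrier, had the ratio of 4.46 and SLC52A3, a riboflavin carrier, 4.18. SLC6A15, a sodium-coupled carrier of neutral amino acids, had 4.08. SLC20A1 averaged 25.8 and 49.3 CPM in the 3dpS and 21dpS starved groups and 11.1 to 16.0 CPM in the others. It thus passed the minimum only through the starved groups, which favours its ratio and its place among the members highest there.

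After 3 days without food no solute carrier passed the test. Among the 57 members, all of them tested, 36 lay higher and 21 lower in starved than in fed fish, with a median log2 fold change of 0.25 beside 0.01 over all genes tested. By edgeR's quasi-likelihood test, adjusted over all genes, 0 of 57 members were called, against 0.531% of the 3953 genes tested. At an unadjusted p under 0.05 there were 8 members, 14.0% of them beside 15.0% of all genes. DESeq2 called 2 members, SLC1A7 and SLC25A5, 3.51% of them beside 2.35% of all genes. Libraries of the 2 diets did not overlap for 8 members, 14.0%, the same share as over all genes (14.0%). Enterocyte markers summed to 3452 to 4707 CPM in fed and 3028 to 3576 CPM in starved libraries, and their part was not tested. The library 3dpS Fed1Gut1 held the most pancreas reads. Its erythrocyte markers summed to 31050 CPM, against 2686 and 2115 CPM in the other fed libraries of that day. Nearly all of that sum was 1 gene, alas2, which reached 30929 CPM in its highest library. The globin genes of the list had almost no reads (hbaa1 at most 1.96 CPM, hbaa2 0), so the sum does not measure red cells in general. Leaving it out raised the count of calls to 4, namely SLC1A7, SLC25A5, SLC25A25 and slc5a8l, and the share over all genes to 2.66%.

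SLC1A7 (ENSDARG00000034940), a carrier of glutamate known in mammals from the retina, came nearest to a call at 3dpS. Its fed libraries held 95.1, 178 and 230 CPM and its starved ones 34.7, 47.8, 50.2 and 77.1. All starved libraries lay below all fed ones, with means of 168 ± 68.1 (SD, n = 3) and 52.5 ± 17.8 (n = 4). The log2 fold change was -1.68 ± 0.35 (SE), with an edgeR adjusted p of 0.0543. SLC25A5, an ADP/ATP exchanger of the mitochondrial inner membrane, lay the other way. It held 67.0, 80.4 and 134 CPM in fed fish against 184, 192, 216 and 251 in starved fish, again without overlap. Its log2 fold change was 1.16 ± 0.30, with an edgeR adjusted p of 0.0948. SLC6A15 held 36.1 to 55.3 CPM in the fed and 14.5 to 30.6 CPM in the starved libraries (log2 fold change -1.10, edgeR adjusted p = 0.153). The main peptide carrier by reads, SLC15A1 (ENSDARG00000044528), which takes up dipeptides and tripeptides with protons, held 786 to 802 CPM in fed and 978 to 1453 CPM in starved fish. That difference was 1.45-fold and was not called (edgeR adjusted p = 0.262).

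After 21 days without food 1 member was called. SLC25A15 (ENSDARG00000062271), the mitochondrial carrier that exchanges ornithine and citrulline in the urea cycle, rose in the starved fish. The 4 fed libraries held 223, 274, 276 and 317 CPM and the 4 starved ones 560, 590, 749 and 808. Each starved library lay above every fed library, and the means were 272 ± 38.6 and 677 ± 120 CPM (SD, n = 4 each). The fitted log2 fold change was 1.24 ± 0.22 (SE), with an edgeR adjusted p of 0.00733. The call held in all 6 alternative fits and in all 8 fits that left out 1 library, where the adjusted p reached at most 0.0343. At 3dpS the same gene held 242 to 346 CPM in starved fish and 146 to 577 CPM in fed fish (log2 fold change -0.33, edgeR adjusted p = 0.740). Whether its effect differed between 3dpS and 21dpS was tested as an interaction, which gave 1.64 ± 0.43 on the log2 scale and an edgeR adjusted p of 0.336, so a difference was not called.

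**Figure D2:**
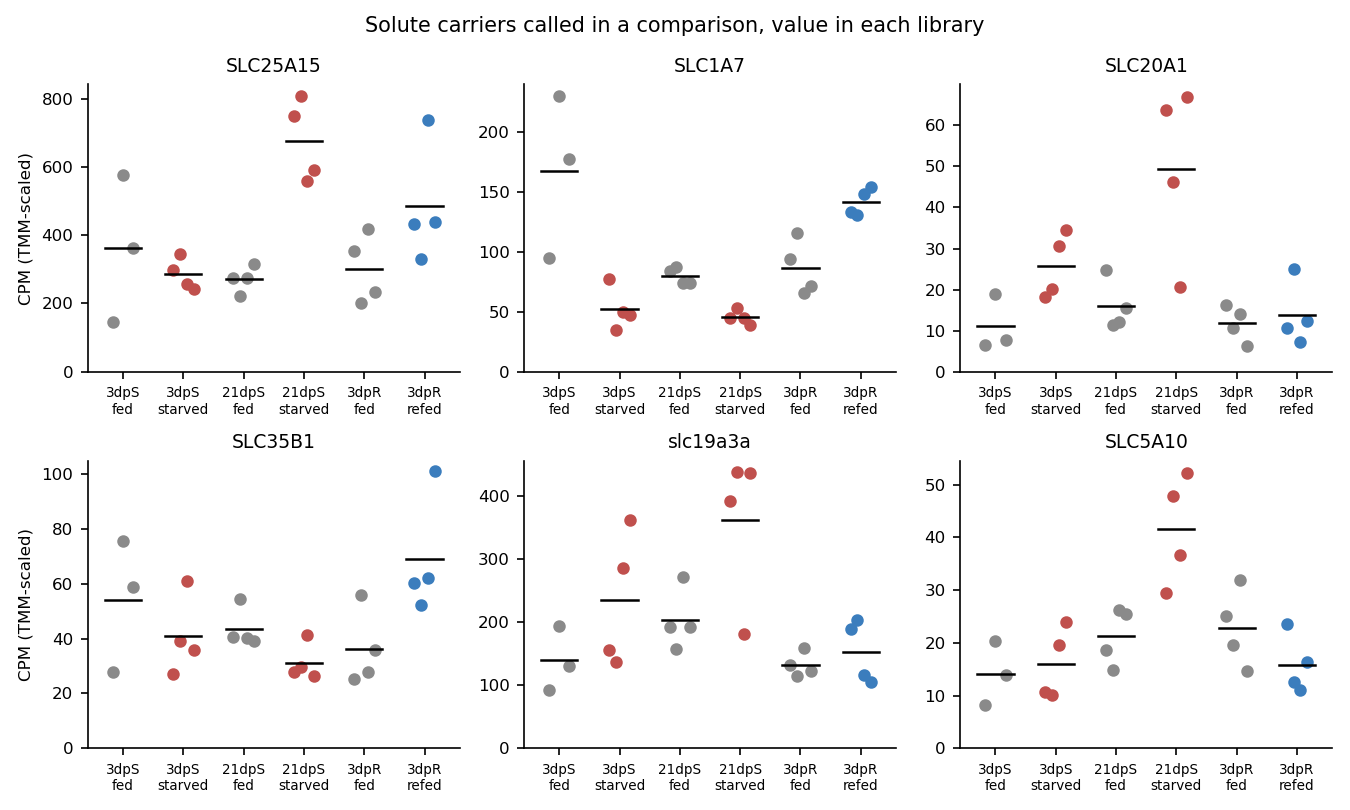
Value in each library, in TMM-scaled CPM, of the 6 solute carriers called in any comparison, by group (grey fed, red starved, blue refed), with black bars at the group means. SLC25A15 in the 21dpS starved libraries (560 to 808 CPM) lies above all 21dpS fed libraries, and SLC1A7 in the refed libraries (131 to 154 CPM) lies above all 21dpS starved ones.

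Across the members at 21dpS, 54 of 57 passed the filter on low counts (SLC7A9, SLC12A4 and SLC35A3 did not), 39 lying higher and 15 lower in starved fish, with a median log2 fold change of 0.29 beside -0.02 over all genes. The 1 call stands beside 2.81% of the 3203 genes tested. An unadjusted p under 0.05 was found for 15 members, 27.8%, beside 20.9% of all genes, of which 12 were higher and 3 lower. The libraries of fed and starved fish did not overlap for 7 members, 13.0%, beside 12.6% of all genes. The sum of the enterocyte markers moved in the other direction at this time point, with 3495 to 4813 CPM in fed and 2669 to 3269 CPM in starved libraries. Of 11 markers 9 were lower, 2 of them called by edgeR, and 2 were higher without a call by edgeR. DESeq2 called 5 of the 11. The sum includes apobb.1 (a mean of 1196 CPM over all 23 libraries), which the paper lists among the genes lowered at 21dpS. The part of these markers in the levels of the members was not tested. DESeq2 called 6 members: SLC25A15, SLC1A5, SLC1A7, SLC12A9, SLC20A1 and SLC43A3, which is 11.1% of those tested beside 6.28% of all genes. Without the fed library Fed1Gut1 edgeR called 5 members, beside 2.81% of all genes. Without Fed2Gut1 or without the starved library Sta2Gut2 it called 3, beside 3.89 and 2.19% of all genes. Exocrine pancreas markers were lower in the starved fish too, with a summed 741 to 1603 CPM in fed and 550 to 828 CPM in starved libraries. Of 7 tested markers edgeR called 2 lower, DESeq2 called 2 as well, and their part was not tested.

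Amino acid carriers went both ways at 21dpS. SLC1A5, an exchanger of neutral amino acids that takes glutamine, held 6.04, 7.82, 9.89 and 26.5 CPM in fed and 35.0, 35.1, 40.7 and 66.8 CPM in starved fish. The groups did not overlap (fitted log2 fold change 1.68 ± 0.45, edgeR adjusted p = 0.0623), although its reads per library were few, from 3 to 54 over all libraries. The 21dpS fed mean of SLC1A5 (12.6 CPM) was the lowest of all groups. Fed fish of the other days held 22.9 to 34.9 CPM at 3dpS and 7.55 to 31.5 CPM at 3dpR. Lower in starved fish were SLC43A2, a carrier of large neutral amino acids, at 146 to 189 CPM against 191 to 437, and SLC1A7, at 39.2 to 53.5 CPM against 74.3 to 87.4. Neither was called (log2 fold changes -0.93 and -0.89, edgeR adjusted p = 0.0922 and 0.0789). SLC3A1, the heavy chain of the carrier of cystine and dibasic amino acids, held 46.1 to 74.1 CPM in starved and 20.1 to 42.9 CPM in fed fish (adjusted p = 0.188 by edgeR). SLC15A2 held 131 to 345 CPM in starved and 88.6 to 221 CPM in fed fish and was not called. In the whole class, 10 of 15 tested members were higher in starved fish, with a median of 0.25. The mean sum of the class was lowest of all groups in the 21dpS fed fish, at 1998 ± 445 CPM (SD, n = 4). It was 2430 ± 527 CPM in the 21dpS starved fish, 2548 in the 3dpS fed and 2187 in the 3dpR fed fish. The low level of these fed controls is thus part of the difference.

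The carriers of inorganic ions, of vitamins and of sugars had the larger medians. SLC20A1 among the ions and SLC5A10 among the sugars passed the minimum with the help of their high 21dpS starved levels. Their higher values in starved fish are therefore favoured by the choice of members, and so are the medians that include them. For ions 8 of 9 tested members were higher in starved fish, none of them called, with a median log2 fold change of 0.85. The sum of the class was 842 to 1281 CPM in the starved and 511 to 804 CPM in the fed libraries. SLC20A1 held 11.5, 12.1, 15.6 and 24.9 CPM in fed and 20.7, 46.1, 63.7 and 66.9 CPM in starved fish, so that 1 starved library lay within the fed range (log2 fold change 1.52 ± 0.41, edgeR adjusted p = 0.0643). SLC12A9, of the cation and chloride cotransporter family, held 34.2 to 245 CPM in fed and 243 to 457 CPM in starved fish (edgeR adjusted p = 0.106). SLC4A4, a sodium bicarbonate cotransporter, held 24.2 to 48.9 CPM against 26.4 to 124 CPM (edgeR adjusted p = 0.154). The member slc12a10.3 held 61.0 to 178 CPM in fed and 46.2 to 391 CPM in starved fish. It was called only without the starved library Sta2Gut2 (2.19% of all genes) and without a filter on low counts. The share without a filter was 1.19% of 19111 genes, many of them with few reads. The exception was SLC34A2, the sodium phosphate cotransporter of the mammalian small intestine, at 90.6 to 168 CPM in fed and 24.9 to 112 CPM in starved fish (log2 fold change -0.83, edgeR adjusted p = 0.259).

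Of the 7 members that carry vitamins, choline, nucleosides or haem, 6 were higher in the starved fish at 21dpS, with a median of 0.76 and no call. SLC43A3, a purine nucleobase carrier in mammals, held 10.1 to 37.4 CPM in fed and 43.0 to 82.9 CPM in starved libraries, without overlap (log2 fold change 1.34 ± 0.39, edgeR adjusted p = 0.0783). The thiamine carrier slc19a3a held 157 to 272 CPM in fed fish. In starved fish it held 182 CPM in 1 library and 393 to 439 CPM in the other 3 (edgeR adjusted p = 0.151). Of the sugar carriers, SLC5A10, known in the mammalian kidney, held 14.8 to 26.2 CPM in fed and 29.5 to 52.3 CPM in starved fish, and SLC5A2, the sodium-glucose cotransporter of the mammalian kidney, 12.1 to 27.4 and 20.7 to 33.4 CPM. Neither passed the test (edgeR adjusted p = 0.138 and 0.341). The median of these 2 sugar carriers was 0.75, and it includes SLC5A10, whose value the choice of members favours.

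Classes of lipid and acid carriers had medians near that of all genes. For lipids, bile acids and organic ions, 5 of 8 members were higher in starved fish, with a median log2 fold change of 0.05. SLC22A13, an organic anion carrier, differed 1.01-fold (log2 fold change 0.02 ± 0.27) and SLC10A2, the bile acid carrier of the ileum, 1.05-fold (0.07 ± 0.35). In this class slc22a7b.3 overlaps crip3, which averaged 8627 CPM, and slc27a2a overlaps hdc at 1701 CPM, so their counts may hold reads of these neighbours. Among the 4 carboxylate carriers the median was 0.03, with SLC13A2, which carries dicarboxylates such as succinate, at 145 to 795 CPM in fed and 258 to 445 CPM in starved fish. SLC5A8, a monocarboxylate carrier that overlaps utp20 at 641 CPM, held 114 to 216 CPM in fed and 143 to 301 CPM in starved fish. The creatine carrier SLC6A8 had a log2 fold change of -0.44 and was not called. SLC35F3, counted in the class of nucleotide sugars and related substrates, held 35.8 to 109 CPM in fed and 50.9 to 105 CPM in starved fish and was not called either.

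**Figure D3:**
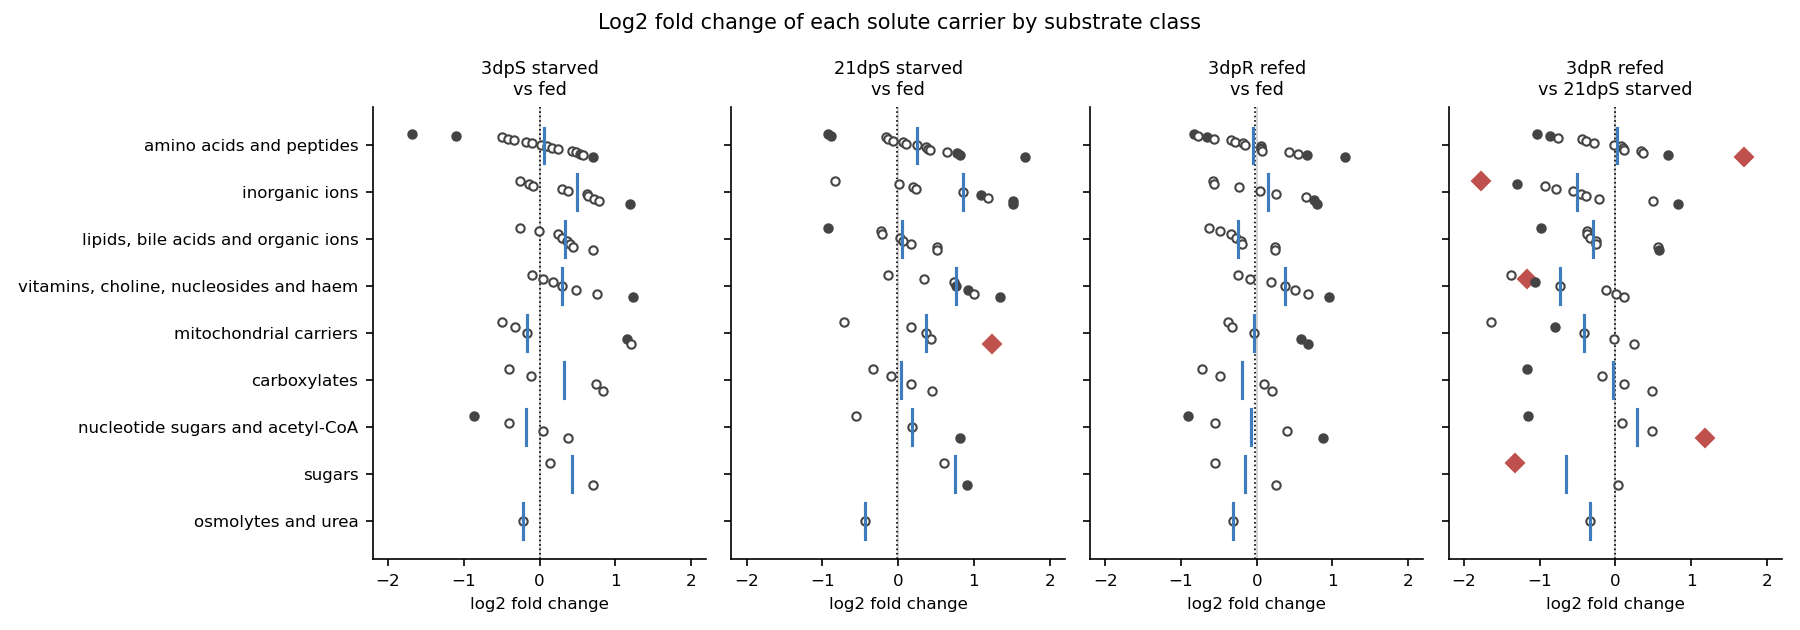
Log2 fold change of each tested solute carrier in 4 comparisons, by substrate class. Red diamonds were called by edgeR (adjusted p under 0.05), filled dark points had an unadjusted p under 0.05, open points did not, blue bars are class medians and the dotted line is the median of all genes tested; at 21dpS the medians of inorganic ions (0.85) and of vitamins, choline, nucleosides and haem (0.76) lie to the right of that line, and against the 21dpS starved fish the refed medians of these classes (-0.51 and -0.73) lie to its left.

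Against fed controls, no member was called after 3 days of refeeding. Of 55 members tested (SLC12A4 and SLC20A1 did not pass the filter), 27 were higher and 28 lower in refed fish, with a median log2 fold change of -0.04 beside -0.02 over all genes. The 0 calls stand beside 0.0349% of the 2862 genes tested in edgeR, and DESeq2 called 0 as well, beside 0.384% of all genes. An unadjusted p under 0.05 was found for 11 members, 20%, beside 7.51% of all genes, and 5 members, 9.09%, had libraries that did not overlap, beside 4.16% of all genes. The smallest p belonged to SLC6A15, with 25.2 to 43.8 CPM in fed and 45.8 to 129 CPM in refed fish (log2 fold change 1.17 ± 0.33, edgeR adjusted p = 0.388). SLC46A3, a lysosomal member of the folate carrier family, held 237 to 546 CPM in fed and 538 to 1122 CPM in refed fish (edgeR adjusted p = 0.470). SLC6A19 (ENSDARG00000018621), of the family of the brush border carrier of neutral amino acids, held 115 to 139 CPM in fed and 45.2 to 102 CPM in refed fish (log2 fold change -0.83, edgeR adjusted p = 0.586). The other 2 genes named SLC6A19 lay at 50.4 to 66.0 and 39.0 to 97.0 CPM, and at 18.0 to 31.5 and 8.60 to 27.1 CPM. Counts of such close copies can share reads and are uncertain. Enterocyte markers summed to 3531 to 4272 CPM in these fed and 2981 to 3809 CPM in the refed libraries. Of 10 enterocyte markers tested, 9 were lower and 1 higher in refed fish, with 0 called by edgeR or DESeq2. Exocrine pancreas markers summed to 1278 to 1901 CPM in the fed and 469 to 1068 CPM in the refed libraries. Leukocyte markers summed to 240 to 348 and 140 to 229 CPM. Of 11 pancreas markers tested edgeR called 0 and DESeq2 2, and of 3 leukocyte markers both called 0. The part of these markers in the differences was not tested.

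Between the 21dpS starved and the 3dpR refed fish 5 members were called. SLC1A7 and SLC35B1 were higher in the refed fish, and SLC20A1, slc19a3a and SLC5A10 were lower. The 2 groups were sampled on different days, so age and refeeding cannot be told apart here. The change of the diet effect from 21dpS to 3dpR, which takes in the fed fish of both days, was called in 0 members by edgeR, beside 0.0432% of all genes. Both groups came from the same 2 starved tanks, with 1 starved library from tank 1 and 3 from tank 2 against 2 refed libraries from each. With the tank as a block edgeR called 10 members, the same 5 and SLC16A6, SLC22A8, SLC26A3, SLC35A5 and SLC43A3, all 5 of them lower in refed fish, beside 11.3% of all genes. DESeq2 called 6, the first 5 and SLC25A5, beside 12.9% of all genes. In all, 16 of 55 tested members (the lesser SLC15A1, ENSDARG00000100315, and SLC7A9 did not pass the filter) had an unadjusted p under 0.05, 29.1% beside 27.9% of all genes, and the 5 calls stand beside 11.3% of the 3008 genes tested. The libraries did not overlap for 9 members, 16.4% beside 18.0% of all genes. The median log2 fold change was -0.28, beside 0.00 over all genes, with 20 members higher and 35 lower. The 4 starved libraries are those of the 21dpS comparison, so the values of the 2 comparisons are not independent. Enterocyte markers summed to 2669 to 3269 CPM in the starved and 2981 to 3809 CPM in the refed libraries. Of 11 such markers 9 were higher in refed fish, 1 of them called by edgeR, and 2 were lower, 1 of them called by edgeR. DESeq2 called 3 of the 11. Markers of other cells moved too. Of those tested, 6 of 7 for exocrine pancreas were higher in refed fish, and edgeR called 1. For liver 4 of 4 and for leukocytes 3 of 3 were lower, and edgeR called none. DESeq2 called 2 of the 7 pancreas markers, 1 of the 4 liver markers and 0 of the 3 leukocyte markers. In starved and refed libraries the pancreas markers summed to 550 to 828 and 469 to 1068 CPM and the leukocyte markers to 241 to 327 and 140 to 229 CPM. The liver markers summed to 339 ± 111 and 113 ± 141 CPM (SD, n = 4 each). The part of these cells in the levels of the members was not tested.

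SLC1A7 held 39.2, 44.6, 45.0 and 53.5 CPM in the starved and 131, 133, 148 and 154 CPM in the refed libraries. Every refed library lay above every starved one, and the refed mean of 142 ± 11.2 also lay above that of the fed fish of the same day (87.0 ± 23.1, SD, n = 4 each). It lay below the mean of the 3dpS fed fish (168 ± 68.1, SD, n = 3, 95.1 to 230 CPM). Against the starved fish the refed level was a 3.24-fold rise (log2 fold change 1.70 ± 0.24, edgeR adjusted p = 0.00127), called in all 6 alternative fits and all 8 fits without 1 library. Against the fed fish of the same day it was not called (log2 fold change 0.66 ± 0.26, edgeR adjusted p = 0.651), although the libraries did not overlap there either. The change of its diet effect from 21dpS to 3dpR was 1.55 ± 0.39 on the log2 scale, with an edgeR adjusted p of 0.0993.

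SLC35B1 (ENSDARG00000038213), an ATP/ADP exchanger of the endoplasmic reticulum in mammals, held 26.2 to 41.5 CPM in starved and 52.1, 60.2, 62.2 and 101 CPM in refed fish, without overlap. The rise was 2.28-fold (log2 fold change 1.19 ± 0.31, edgeR adjusted p = 0.0224). SLC20A1 (ENSDARG00000010641) fell from the 20.7 to 66.9 CPM of the starved fish to 7.32, 10.7, 12.3 and 25.0 CPM, with 1 refed library inside the starved range (log2 fold change -1.77 ± 0.44, edgeR adjusted p = 0.0205). The thiamine carrier slc19a3a (ENSDARG00000006447) fell to 105, 117, 189 and 204 CPM, and the 1 starved library at 182 CPM lay inside the refed range (log2 fold change -1.16 ± 0.30, edgeR adjusted p = 0.0240). SLC5A10 (ENSDARG00000074212) fell to 11.0, 12.5, 16.4 and 23.6 CPM, below all starved libraries (log2 fold change -1.33 ± 0.36, edgeR adjusted p = 0.0279). These 4 calls depended on the libraries fitted, and reads were few for SLC20A1 (3 to 46 in a library) and SLC5A10 (5 to 36). SLC20A1 reached an unscaled mean of 20 CPM in 2 of the 6 groups and SLC5A10 in 3. Both were highest in the 21dpS starved group, which helped them pass the minimum. A fall from that group is therefore favoured by the choice of members. Leaving out 1 of the 8 libraries kept the call of SLC35B1 in 4 fits, of slc19a3a in 4, of SLC20A1 in 3 and of SLC5A10 in 3. Without the starved fish Sta2Gut3 or without the refed fish Sta2Gut2 the count of members called was 1, SLC1A7, beside 3.68 and 4.21% of all genes. Without Sta2Gut1 of the refed group it was 2, beside 7.23%, and without Sta1Gut2 of the starved group 3, beside 6.71%.

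Near the threshold and not called without the tank block were SLC35A5, of the nucleotide sugar carrier family (log2 fold change -1.15, edgeR adjusted p = 0.0504, and 0.0479 with the block), and SLC25A5 (-0.80, 0.0584, and 0.0860 with the block). SLC25A15 lay between the groups at 3dpR, with 329 to 736 CPM in refed fish. That was 1.33-fold below the starved fish of 21dpS (log2 fold change -0.42 ± 0.24, edgeR adjusted p = 0.280) and 1.60-fold above the fed fish of the same day (0.67 ± 0.27, 0.651). By class, 8 of 10 ion carriers were lower in refed than in starved fish (median -0.51) and 5 of 7 carriers of vitamins, choline, nucleosides and haem (median -0.73). Of the 2 sugar carriers 1 was lower and 1 higher (median -0.65).

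Neither the fed fish of different days nor the effects of diet at different times differed in any member called by edgeR. From 3dpS fed to 21dpS fed 0 of 55 members were called by edgeR (0.0588% of all genes), 0 by DESeq2 (1.41%), and 8 had an unadjusted p under 0.05, 14.5% beside 13.8%. In that comparison 15 of the 16 amino acid and peptide carriers were lower at 21dpS, with a median of -0.46. An unadjusted p under 0.05 was found for 6 of them, and none was called. From 21dpS fed to 3dpR fed 11 of 15 tested carriers of this class were higher, none of them called. SLC16A6, of the monocarboxylate carriers, held 31.1 to 36.4 CPM in the earlier and 46.3 to 126 CPM in the later fed fish (edgeR adjusted p = 0.185). From 21dpS fed to 3dpR fed 0 of 54 members were called (0% of all genes by edgeR, and 0 members by DESeq2 beside 0.0963% of all genes), and 2 had an unadjusted p under 0.05, beside 5.20% of all genes. The effect of diet changed from 3dpS to 21dpS in 0 of 57 members by edgeR (0% of all genes) and by DESeq2 (0.0216%), with 6 members at an unadjusted p under 0.05, 10.5% beside 8.64%. From 21dpS to 3dpR it changed in 0 members by edgeR (0.0432% of all genes) and in 1, SLC1A7, by DESeq2 (0.691%), with 9 at an unadjusted p under 0.05, 15.8% beside 9.94%.

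With only 2 libraries a tank, the 2 tanks of one arm often separated fully, in the carriers and over all genes. The share of carriers stood furthest above that of all genes in the refed fish. In the refed fish, the 2 libraries of tank 1 lay fully above or below the 2 of tank 2 for 35 of 55 tested members, 63.6%, beside 40.3% of all genes. The same was seen for 27 members of the 3dpR fed fish (49.1% beside 46.2%), for 31 of 54 in the 21dpS fed fish (57.4% beside 49.6%) and for 26 of 57 in the 3dpS starved fish (45.6% beside 43.7%). At 3dpR, 19 of 55 members split by tank in both arms in opposite directions, 34.5% beside 14.5% of all genes, and 15 of these were higher in starved tank 1 and in fed tank 2. Tanks of the 2 arms share only their number, and these counts were made after the values were seen and carry no test.

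At 3dpR the members that split most were SLC52A3, SLC25A25 and SLC26A3, chosen after their values were seen. In the 3dpS starved fish their tank means differed 1.04-, 1.09- and 1.18-fold, and the libraries of the tanks overlapped. In the 21dpS fed fish the means differed 1.35-, 1.35- and 1.06-fold, again with overlap. SLC52A3 held 68.8 and 47.9 CPM in the refed fish of tank 1 but 5.49 and 6.16 in those of tank 2. In the fed fish of that day it held 8.86 and 4.53 in tank 1 but 36.0 and 33.6 in tank 2. SLC25A25, a carrier of ATP-magnesium and phosphate of the mitochondrial inner membrane, held 101 and 100 CPM against 16.5 and 2.05 in the refed and 14.8 and 19.6 against 84.0 and 111 in the fed fish. SLC26A3, the chloride and bicarbonate exchanger of the gut lining, held 73.1 and 62.5 against 18.3 and 16.4 CPM in the refed and 39.9 and 16.6 against 96.0 and 103 in the fed fish. In all 3 genes the refed and fed fish overlapped, and the diet comparison at 3dpR had log2 fold changes of 0.67, -0.04 and -0.57. Summed enterocyte markers did not split by tank in the refed fish, with 3211 and 3809 CPM in tank 1 against 3586 and 2981 in tank 2. They did in the fed fish, with 4272 and 4266 against 3531 and 3834 CPM, and their part was not tested.

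**Figure D4:**
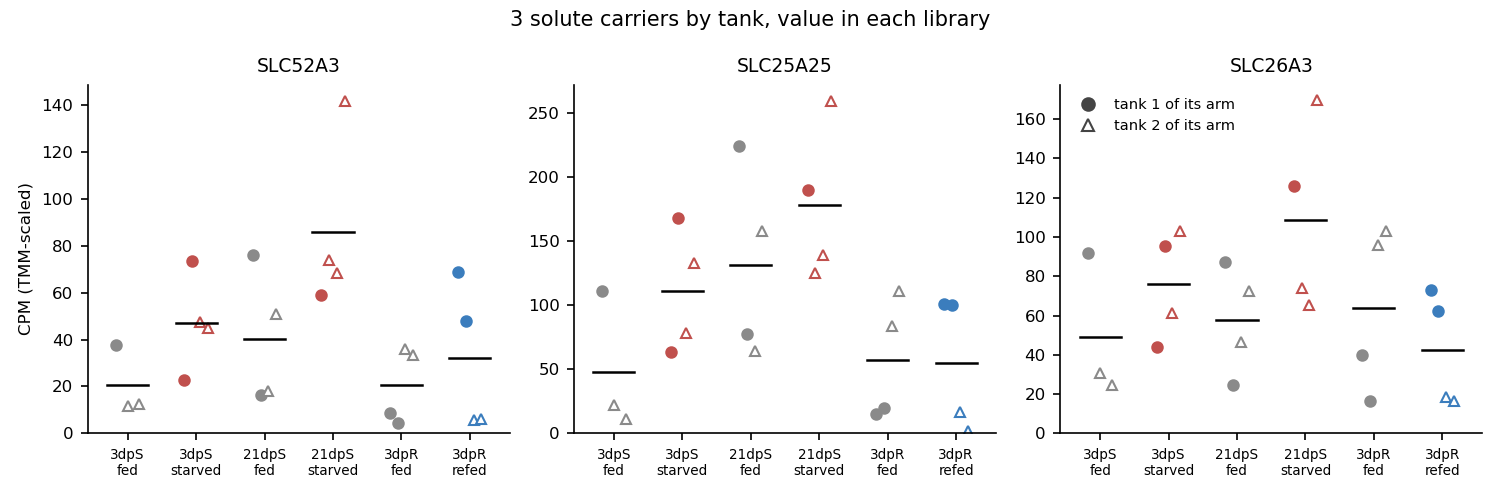
SLC52A3, SLC25A25 and SLC26A3 in TMM-scaled CPM in each library by group, with filled circles for tank 1 and open triangles for tank 2 of an arm and black bars at group means. In the 3dpR groups the tanks separate in opposite directions, as for SLC52A3 with 4.53 and 8.86 CPM in fed tank 1, 33.6 and 36.0 in fed tank 2, 47.9 and 68.8 in refed tank 1 and 5.49 and 6.16 in refed tank 2.

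Genes that work with the carriers were followed as lists. Of 16 symbols of subunits of the sodium-potassium ATPase, 9 were matched and 1, atp1a1a.4, was tested, and it was not called in any comparison (log2 fold change 0.65 at 3dpS and 0.60 at 21dpS, edgeR adjusted p = 0.267 and 0.264). The list summed to 72.8 to 94.3 CPM in fed and 120 to 143 CPM in starved fish at 3dpS, without overlap. Among all single genes tested at 3dpS, 14.0% did not overlap either. The sums overlapped at 21dpS (57.7 to 88.6 and 84.8 to 140 CPM) and at 3dpR (94.0 to 139 and 76.0 to 137 CPM). Among 12 matched partners that traffic or regulate carriers, 9 were tested at 3dpS and 7 in each of the comparisons at 21dpS and 3dpR, with 0 called by edgeR. In the 3 comparisons with fed controls of the same day, 3 of these tests had an unadjusted p under 0.05 and were higher and 1 was lower. Of all genes, 15.0, 20.9 and 7.51% had such a p at 3dpS, 21dpS and 3dpR. Of 32 matched ABC transporters, which pump substrates with ATP, 9 were tested at 3dpS. There 0 were called and 2 were lower at an unadjusted p under 0.05, beside 15.0% of all genes at that p. At 21dpS and at 3dpR 6 were tested, with 0 called and 0 at that p. In these 3 comparisons DESeq2 called 0 genes of the 3 lists.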

How the data were processed

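Each of 23 libraries came with raw counts per Ensembl gene, as deposited: the authors trimmed 50-base single-end reads with Trim Galore, aligned them to GRCz10 with STAR and counted with HTSeq 0.9.1. Strand setting and annotation release are not given in the sources used here. Gene names came from a name table; overlaps came from RefSeq of another build, for names and neighbours only. Counts were tested in R 4.3.3 with edgeR 4.0.16 (filterByExpr, TMM, robust quasi-likelihood fit on the groups compared, Benjamini-Hochberg over all genes tested, two-sided, called at an adjusted p under 0.05). Interactions used all 23 libraries. Each SE is the size of the log2 fold change over the square root of the F statistic of the edgeR test. DESeq2 1.42.0, other scaling, other filters, 1 fit of all libraries, a tank block and leaving out each library were alternatives. Tank labels pair libraries within an arm over time; residuals of libraries from the same tank correlated at a mean of -0.015 between refed and 21dpS starved fish. No 2 libraries of a group agreed within sampling noise. The scripts were tested on simulated data.

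Named members were those called in any of 8 comparisons, the 10 with the smallest p in each comparison with fed controls of the same day, the 3 with the most reads per class, and those whose 21dpS libraries did not overlap with a log2 fold change of at least 1 in size. Further members are given where a count or class is described. The members, classes and lists were chosen with earlier results of these data known. Values of 1 member are not reported here, although it is counted among the 57.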

Additional observations from a re-analysis of the deposited data

Results flagged for a closer look

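Of 165 groups of 4 libraries over 33 named members, 11 had a library far from the other 3 by Dixon's test at 95%, which chance gives in about 5% of groups. In the 3dpS starved fish, Sta2Gut3 was high in SLC43A2 (393 CPM, others 260 to 262), SLC43A3 (41.9, others 19.7 to 23.1) and SLC5A2 (59.8, others 19.6 to 26.0). Sta2Gut2 of that group was high in SLC6A8 (214, others 66.5 to 91.2) and SLC23A1 (99.1, others 86.2 to 88.2). In the 21dpS fed fish Fed1Gut3 was high in SLC35B1 (54.4, others 39.1 to 40.5). Among 3dpR fed fish, Fed1Gut3 was high in SLC6A8 (291, others 118 to 132) and Fed2Gut3 in SLC23A1 (130, others 48.3 to 62.0). In the refed fish, Sta1Gut1 was high in SLC22A13 (1079, others 851 to 885), Sta1Gut3 was low in SLC35A3 (14.6, others 21.5 to 22.6) and Sta2Gut2 was low in SLC4A4 (26.7, others 68.7 to 77.4).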

How the results depend on the processing

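Of 58 log2 fold changes of members recomputed under the alternatives, 5 changed sign in at least 1, none of them called. In the comparisons with fed fish of the same day, SLC22A13 at 21dpS became -0.04 with the tank as a replicate block, and SLC25A25 at 3dpR became 0.04 without a filter on low counts and 0.02 in the fit of all 23 libraries. Leaving out 1 library in turn gave -0.70 to 0.13 for SLC25A15 at 3dpS, -0.15 to 0.31 for SLC10A2 and -0.16 to 0.24 for SLC22A13 at 21dpS, and -0.51 to 0.55 for SLC25A25 and -0.02 to 1.06 for SLC52A3 at 3dpR.

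Counts of members called moved, and are given with the share of all genes called. Without a filter that share is over 18632 to 22017 genes with at least 1 read. These include genes with too few reads to be called, whereas every member averaged 20 CPM or more. Counts of members and shares of all genes are therefore not alike in the fits without a filter. At 3dpS the 0 became 2 with DESeq2 (2.35%), 2 without a filter (0.907%), 1 with at least 10 counts in every library (1.34%) and 2 in the fit of all libraries (1.49%). At 21dpS the 1 became 6 with DESeq2 (6.28%), 6 without a filter (1.19%) and 3 in the fit of all libraries (3.74%). At 3dpR it went from 0 to 1 without a filter (0.113%). Between refed and 21dpS starved fish it went from 5 to 10 without a filter (2.55%), 7 in the fit of all libraries (6.53%) and 6 with DESeq2 (12.9%). With a minimum mean level of 40 CPM for the members it was 3, beside an unchanged 11.3% of all genes. The change of effect from 3dpS to 21dpS gave 1 call without a filter (0.0590%) and that from 21dpS to 3dpR 1 with DESeq2 (0.691%). The cause was not tested. Leaving out 1 library in turn gave 0 to 4 calls at 3dpS (0.0230 to 2.66% of all genes) and 1 to 5 at 21dpS (1.01 to 3.89%). It gave 1 to 6 between refed and 21dpS starved fish (3.68 to 9.45%). For the change from 3dpS to 21dpS it gave 0 to 1, the 1 without 3dpS Fed1Gut1 (0.141%).

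With the tank number as a replicate block 4 members were called at 21dpS (4.21%) and 10 between refed and starved fish (11.3%), and no other count moved. Fed and starved tanks share only a number, their same-numbered libraries correlating at a mean of -0.016, 0.07 and -0.105 at 3dpS, 21dpS and 3dpR. Refed and 21dpS starved fish came from the same tanks, and there the mean correlation was -0.015. With a median of 596487 reads a library, members near 20 CPM rest on few reads each.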
